A study of Mus musculus with 2 samples.

Results

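The secreted factors TGF-beta and activin and their receptors were followed through the cell types of the neonatal mouse lung in room air and in hyperoxia. The 9 genes were listed by name. They are the ligand genes *Tgfb1*, *Tgfb2* and *Tgfb3*, the activin subunit genes *Inhba* and *Inhbb*, the receptor genes *Tgfbr1*, *Tgfbr2* and *Tgfbr3*, and *Fst*, which encodes the activin antagonist follistatin. All 9 were found among the 27998 genes counted in both libraries. Lung cells of wild-type C57BL/6 mice were profiled by droplet scRNA-seq after 2 weeks. The mice had breathed room air with 21% O2, or 80% O2 from postnatal day 0 to day 14, a model of bronchopulmonary dysplasia. The groups differed in oxygen and in no allele or drug. Each group was 1 library made from 8 pooled mice, so no replicate of a group exists, no test between the groups was possible, and every 95% interval given here covers counting error only.

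TGF-beta ligands are secreted in a latent form, and once released they bind the type II receptor TGFBR2, which recruits and activates the type I receptor TGFBR1 and through it SMAD2 and SMAD3. TGFBR3 (betaglycan) is a coreceptor that presents the ligands, TGF-beta 2 above all. Activins are dimers of inhibin beta subunits, activin A of the *Inhba* product and activin B of the *Inhbb* product, and signal through their own receptors to the same SMADs, while follistatin binds activins and blocks them. In the lung this family is known for its control of matrix deposition, of myofibroblasts and of alveolar septation.

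The room air library held 4234 barcodes and the hyperoxia library 13223, with 39593888 and 111934936 UMIs (unique molecular identifiers, each marking 1 counted transcript), and 17 barcode sequences occurred in both. After filters and removal of presumed doublets, 3680 and 10473 cells remained, with medians of 8063.5 and 7227 UMIs. Names of cell types rest on marker genes read in these counts, hence the ending "-like". The comparison used the 21 cell types with at least 30 cells in each library. In several types the libraries formed clusters of their own, and 79.4% (room air) and 87.6% (hyperoxia) of alveolar fibroblast-like cells were in clusters made up of their own library by 90% or more. Such a split cannot be told apart from a difference between cell states. Median depth in club-like cells was 41392 UMIs for room air but 1742 for hyperoxia. In basophil- or mast-like cells it was 1669 and 1421, with the platelet genes *Pf4* and *Itga2b* among their leading genes. Values of these 2 types are therefore not read as differences. Levels are given as CPM, the UMIs of a gene per 1000000 UMIs summed over the cells of a type. The counts come from 1 end of the transcript and were compared only within a gene.

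By position (GRCm38, GENCODE gene records), *Inhba* lies on chromosome 13 (16011851 to 16031621, plus strand) and *Fst* on the same chromosome (114452290 to 114458951, minus strand). *Inhbb* (119415465 to 119422248) and *Tgfb2* (186622792 to 186705989) are both on the minus strand of chromosome 1. The other ligand genes are *Tgfb1* on chromosome 7 (25687002 to 25705077, plus strand) and *Tgfb3* on chromosome 12 (86056745 to 86079041, minus strand). The receptor genes lie on chromosome 4 (*Tgfbr1*, 47353222 to 47414931, plus strand), chromosome 9 (*Tgfbr2*, 116084293 to 116175360, minus strand) and chromosome 5 (*Tgfbr3*, 107106570 to 107289629, minus strand). *Tgfbr3* was the only member that overlapped other annotated genes on its own strand (3 of them), and *Tgfb2*, *Tgfb3*, *Inhba*, *Tgfbr3* and *Fst* overlapped genes on the other strand, so that UMIs of *Tgfbr3* could include reads of those partners.

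Among pairs of gene and cell type with a mean of at least 10 CPM, *Inhba* gave the highest ratio of hyperoxia to room air and *Inhbb* the lowest, and their upstream sequences are printed for that reason. RefSeq (GRCm38.p6) gave promoter sequence for 6 of the 9 genes. The lines give the 250 bases before the start of the gene in the direction of transcription, 5′ to 3′, for *Inhba* at chr13:16011601-16011850 (plus strand) and for *Inhbb* at chr1:119422249-119422498 (minus strand). Capitals mark matches to the 6 motifs searched on both strands, which were the AP-1 site TGANTCA, the CRE TGACGTCA, the E-box CACGTG, the GC box GGGCGG, the TATA box TATAAA and the SMAD element CAGACA.
Inhba: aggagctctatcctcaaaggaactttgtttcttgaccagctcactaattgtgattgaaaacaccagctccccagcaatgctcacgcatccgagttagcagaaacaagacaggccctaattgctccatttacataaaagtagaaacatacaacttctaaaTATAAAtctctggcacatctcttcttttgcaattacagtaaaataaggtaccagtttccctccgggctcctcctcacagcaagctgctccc
Inhbb: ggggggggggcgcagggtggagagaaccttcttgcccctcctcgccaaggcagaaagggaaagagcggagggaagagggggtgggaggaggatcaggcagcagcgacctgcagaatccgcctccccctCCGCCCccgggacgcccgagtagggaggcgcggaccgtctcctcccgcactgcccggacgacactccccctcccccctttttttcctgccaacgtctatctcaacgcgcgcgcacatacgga
The *Inhba* window held 1 match, a TATA box, which 12.4% of the 32851 promoters of the same length also hold, and the *Inhbb* window held 1 match, a GC box on the reverse strand, found in 32.7% of them. The CRE was the rarest of the motifs (1.55% of promoters), and AP-1 sites (6.75%), E-boxes (6.02%) and SMAD elements (17.1%) were likewise not among the letters of either window. A match describes the letters only.

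**Figure D1:**
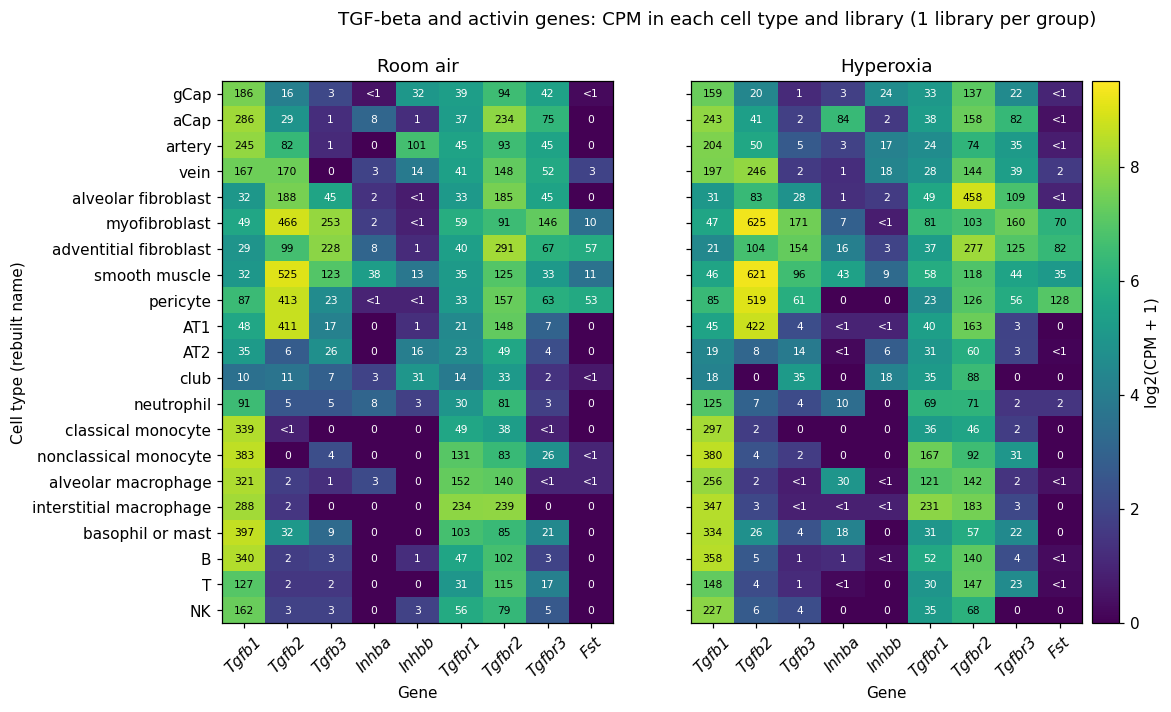
Levels (CPM) of the 9 genes (columns) in 21 cell types (rows) in the room air library (left) and the hyperoxia library (right), coloured by log2(CPM + 1) and printed to the nearest whole number, with values above 0 and under 1 shown as <1. *Tgfb1* is brightest in monocyte-like, macrophage-like, B-like and basophil- or mast-like cells, and *Tgfb2* in contractile stromal and AT1-like cells. *Inhba* in aCap-like cells stands at 8 in room air against 84 in hyperoxia.

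The genes differed in the cell types that carried them, as the map of levels by cell type shows, and some shared a leading type. Myofibroblast-like cells led for *Tgfb3* and *Tgfbr3* in both libraries, and interstitial macrophage-like cells for *Tgfbr1*. The leading types of *Tgfb1*, *Tgfb2*, *Inhba*, *Inhbb*, *Tgfbr2* and *Fst* were not the same in the 2 libraries. Among these, *Tgfb1*, *Tgfb2*, *Tgfbr2* and *Fst* had overlapping intervals between the first 2 types in room air. *Tgfb1* was read in all 21 cell types, *Tgfbr1* and *Tgfbr2* likewise, while *Inhba*, *Inhbb* and *Fst* reached a mean of 10 CPM in only 4, 6 and 4 types. *Tgfb2*, *Tgfb3* and *Tgfbr3* passed that limit in 11, 8 and 12 types. Of the 189 pairs of gene and cell type, 108 passed it and 81 did not, and among those 81 the highest level in either library was 17.6 CPM, from 4 UMIs of *Inhba* in basophil- or mast-like cells of hyperoxia against 0 in room air. Club-like cells (19.5% of all genes higher and 20.9% lower past 2-fold) and basophil- or mast-like cells (12.6% in each direction) had the largest shares of genes past 2-fold of all types. In 13 pairs the level was at least 2-fold higher in hyperoxia (12% of 108) and in 5 at least 2-fold lower (4.63%). Over all genes in the same types, 4.9% of the pairs were higher and 4.94% lower. The 9 genes were chosen with earlier results of these data known. Whether they were past 2-fold more often than other genes was therefore not tested. A pair could also pass the limit through its higher library alone. Among the pairs past 2-fold, *Inhba* did so in 3 types (room air first in each pair of values). These were aCap-like (7.68 against 84.1 CPM), alveolar macrophage-like (3.36 against 29.8 CPM) and adventitial fibroblast-like cells (7.55 against 16.3 CPM). So did *Tgfb3* in AT1-like (17.0 against 3.72 CPM) and club-like cells (6.55 against 35.1 CPM), and *Inhbb* in AT2-like cells (15.8 against 6.02 CPM). Without the club-like and the basophil- or mast-like cells, a choice made after the values were seen, 10 of 98 pairs were higher and 4 lower. The shares over all genes given above include those 2 types and are no measure for this smaller set. The median log2 ratio over the 108 pairs was 0.03, and over all genes the medians of the types ran from -0.24 (alveolar macrophage-like cells) to 0.10 (NK-like cells).

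**Figure D2:**
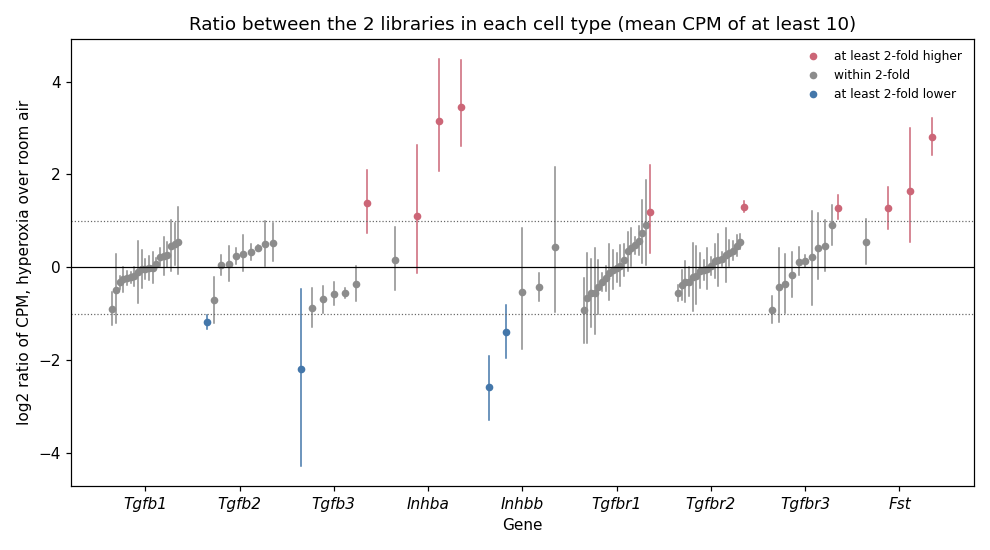
Each point is the log2 ratio of CPM (hyperoxia over room air) of a gene in 1 cell type with a mean of at least 10 CPM, with its exact 95% interval (counting error only), without club-like and basophil- or mast-like cells, and dotted lines mark 2-fold. All *Tgfb1* points lie within 2-fold, while *Inhba* has points up to 3.45 and *Inhbb* down to -2.58.

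Among the ligands, *Tgfb1*, which encodes the TGF-beta most tied to immune regulation, lay within 2-fold between the libraries in every cell type compared. Apart from basophil- or mast-like cells (397 and 334 CPM), nonclassical monocyte-like cells led, and there it measured 383 CPM (346 to 423) in room air against 380 CPM (325 to 441) in hyperoxia, a ratio of 0.991 (0.824 to 1.19). B-like cells had 340 and 358 CPM, and interstitial macrophage-like cells 288 and 347 CPM. The intervals of neighbours in this order overlapped from the first to the fifth type in either library. Across the 21 types its ratios ran from 0.535 in AT2-like cells (35.1 and 18.8 CPM) to 1.69 in club-like cells, so no type lay past 2-fold. Endothelial cells (ECs) carried it as well, with 286 and 243 CPM in aCap-like (aerocyte capillary) cells and 186 and 159 CPM in gCap-like (general capillary) cells.

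*Tgfb2* was a gene of stromal-like and AT1-like cells. The stromal-like lineage held 86.5% of its UMIs in room air against 85.3% in hyperoxia, with 22.9% and 24.5% of the cells. Smooth muscle-like cells measured 525 CPM (470 to 584) in room air against 621 CPM (590 to 652) in hyperoxia. Myofibroblast-like cells had 466 and 625 CPM, pericyte-like cells 413 and 519 CPM, and AT1-like cells 411 and 422 CPM. In room air the intervals of these 4 types overlapped from each to the next, and the step down to the fifth type was clear of them. The smooth muscle value depended on its clusters: the cluster led by *Acta2*, *Myh11* and *Actg2* measured 355 and 357 CPM, and a second one led by *Gpc6*, *Acta2* and *Parm1* measured 775 (22 cells) and 1242 CPM (74 cells). The log2 ratio over both was 0.24, and it fell below 0 when more doublets were removed (-0.37) or when each library was clustered alone (-0.29).

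Alveolar fibroblast-like cells, the *Tcf21*- and *Col13a1*-bearing lipid-storing fibroblasts of the alveolar wall, were the type in which *Tgfb2* was lower past 2-fold. It measured 188 CPM (173 to 204) in room air against 83.1 CPM (78.2 to 88.2) in hyperoxia, a ratio of 0.441 (0.399 to 0.489). Beside it, 2.45% of all genes tested in these cells were higher and 1.86% lower by as much. For shares of cells with a UMI, each cell with at least 2000 UMIs was thinned to 2000, and cells with fewer were left out. Of the thinned cells, 29.6% of room air and 15.5% of hyperoxia kept a *Tgfb2* UMI. In B-like cells, which served as the measure of free RNA, it was 0.531% and 0.744%. The 1 cluster that both libraries shared was shallow and gave 115 CPM (11 UMIs) and 63.5 CPM (14 UMIs), a log2 ratio of -0.86, within 2-fold.

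*Tgfb3*, best known for its role in palate and lung development, was led by myofibroblast-like cells at 253 CPM (240 to 266) in room air against 171 CPM (163 to 180) in hyperoxia. That ratio of 0.678 (0.632 to 0.727) lay within 2-fold. Adventitial fibroblast-like cells stood next at 228 and 154 CPM, with overlapping intervals, and smooth muscle-like cells at 123 and 95.7 CPM. The lower level was seen in both myofibroblast-like clusters with at least 30 cells of each library, at 160 and 117 CPM in the one led by *Agt* and *Tnc* and at 384 and 223 CPM in the one led by *Aspn* and *Grem1*. Pericyte-like cells went the other way, with 23.2 CPM (15.05 to 34.3) in room air against 60.9 CPM (48.5 to 75.5) in hyperoxia. This was 2.62-fold higher (1.66 to 4.28), where 4.01% of all genes in pericyte-like cells were higher and 3.93% lower by at least 2-fold. Most pericyte-like cells (90.1% of room air and 77.7% of hyperoxia) lay in clusters dominated by their own library. The log2 ratio of 1.39 dropped under the 2-fold limit with no doublets removed (0.73) and as a mean over single cells (0.84), and reached 2.19 with each library clustered alone. In AT1-like cells it was lower (17.0 and 3.72 CPM), from 12 and 4 UMIs, where 4.18% of all genes were higher and 5.09% lower by at least 2-fold.

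*Inhba* differed most in ECs. In aCap-like cells, the thin ECs that line the gas exchange surface, 11 UMIs in 166 cells gave 7.68 CPM (3.84 to 13.7) in room air, and 710 UMIs in 1129 cells gave 84.1 CPM (78.0 to 90.5) in hyperoxia. The level was 10.9-fold higher (6.08 to 22.0) in the hyperoxic lung, in a type where 1.89% of all genes were higher and 3.16% lower by at least 2-fold. In room air 9 aCap-like cells held all of the UMIs and no cell had more than 3, while in hyperoxia 238 cells held at least 1, 52 of them 5 or more, with a highest count of 15. In hyperoxia 80.0% of the UMIs lay in the tenth of the cells richest in them, so the gene was read strongly in a minority of the cells.

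The distribution over the lung differed as well. Of the 81 *Inhba* UMIs of room air, 61.7% (50.3 to 72.3) lay in the stromal-like lineage and 13.6% (6.98 to 23.0) in aCap-like cells. Of the 1197 UMIs of hyperoxia, 19.5% (17.3 to 21.9) lay in the stromal-like lineage and 59.3% (56.5 to 62.1) in aCap-like cells, which were 4.51% and 10.8% of all cells. Thinned to 2000 UMIs, 2.99% (0.819 to 7.47) of aCap-like cells had an *Inhba* UMI in room air against 10.7% (8.80 to 12.9) in hyperoxia. In B-like cells, which should lack the gene, it was 0 of 377 cells, which allows a share of up to 0.796%, and 0.248%. Unthinned shares in aCap-like cells were 5.42% and 21.1%.

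The difference was present within a cluster that both libraries shared. In the aCap-like cluster led by *Kdr*, *Cyp4b1*, *Apln* and *Ednrb*, *Inhba* measured 8.40 CPM (3.84 to 15.9) in 99 room air cells and 120 CPM (106 to 134) in 254 hyperoxia cells. A second aCap-like cluster, with 604 of its 620 cells from hyperoxia, measured 70.8 CPM there, against 1 UMI in its 16 room air cells. The red cell gene list was lower in aCap-like cells of hyperoxia, with 5 of 5 genes lower and 6440 against 3257 CPM in sum, and the dissociation response list stood at 5989 and 6883 CPM with 10 of 12 genes higher. Their part in the *Inhba* values was not tested.

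Alveolar macrophage-like cells were the other type with a large *Inhba* difference, at 3.36 CPM (7 UMIs) in room air against 29.8 CPM (173 UMIs) in hyperoxia. The ratio was 8.87 (4.21 to 22.4), where 1.31% of all genes in these cells were higher and 7.44% lower by at least 2-fold and the median of all genes was shifted by -0.24 (log2). Of these cells, 74.3% (room air) and 95.7% (hyperoxia) lay in clusters dominated by their own library, and the cell cycle list was lower in the hyperoxia cells (1018 against 196 CPM in sum, 8 of 8 genes lower). Its part in the result was not tested. Smooth muscle-like cells, which were the highest type in room air at 37.9 CPM (24.3 to 56.4), measured 42.5 CPM (34.8 to 51.4) in hyperoxia, a ratio of 1.12 (0.715 to 1.83). Adventitial fibroblast-like cells had 7.55 CPM from 6 UMIs and 16.3 CPM from 45, with an interval of the ratio (0.920 to 6.21) that included 1, where 3.37% of all genes were higher and 2.34% lower. That log2 ratio of 1.11 was 0.71 with more doublets removed and 0.78 at a finer clustering, both within 2-fold.

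*Inhbb*, the other activin subunit gene, was led by artery-like ECs in room air. It measured 101 CPM (80.5 to 125) from 83 UMIs in 94 cells of room air and 16.9 CPM (10.9 to 24.9) from 25 UMIs in 153 cells of hyperoxia. The ratio of 0.167 (0.102 to 0.264) stands beside 5.85% of all genes higher and 5.41% lower by at least 2-fold in artery-like cells. Both libraries shared the single artery-like cluster. A UMI was found in 35 of the 94 cells and 12 of the 153, and after thinning in 20% (12.3 to 29.8) and 3.38% (1.11 to 7.71). In B-like cells it was found in 0.796% and in 0 of 1209, which allows a share of up to 0.248%. In room air the interval of artery-like cells was apart from that of the next type, and in hyperoxia their interval overlapped with those of gCap-like (23.7 CPM) and vein-like cells (18.4 CPM). Arterial markers summed to 3308 and 3171 CPM in the 2 libraries, vein markers to 1207 and 2373 CPM and gCap markers to 3630 and 2717 CPM. The part of these markers in the result was not tested.

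In AT2-like cells, the surfactant-producing epithelium, *Inhbb* was also lower, with 15.8 CPM (41 UMIs) and 6.02 CPM (76 UMIs) and a ratio of 0.381 (0.257 to 0.571), where 1.4% of all genes were higher and 2.08% lower by at least 2-fold. Within the AT2-like cluster that held over 100 cells of each library it measured 14.6 and 8.51 CPM, with overlapping intervals and a log2 ratio of -0.78, within 2-fold. In gCap-like cells it measured 32.0 CPM (27.4 to 37.2) and 23.7 CPM (20.5 to 27.2), within 2-fold.

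**Figure D3:**
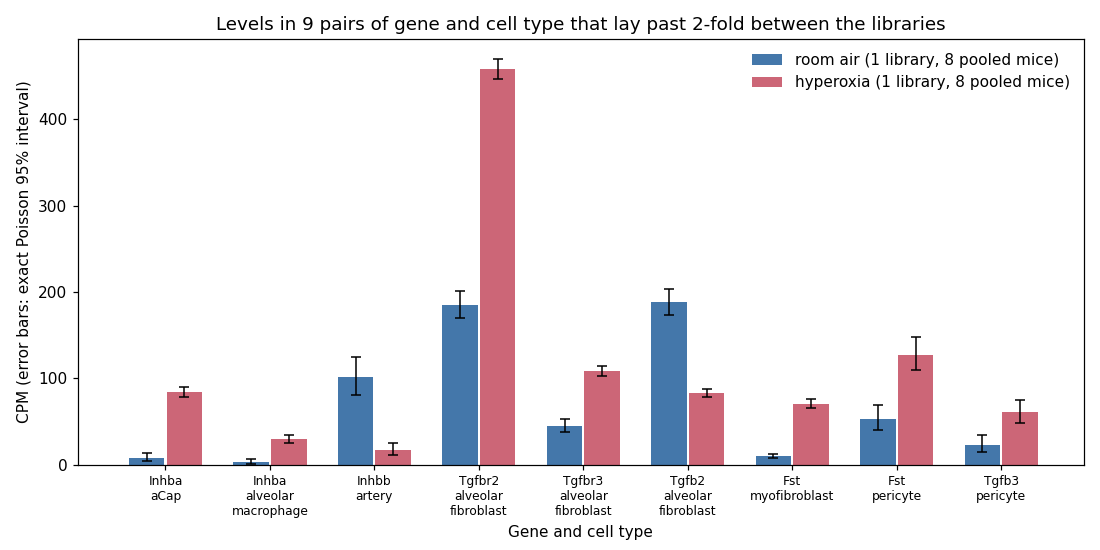
CPM in room air (blue) and hyperoxia (red) for 9 pairs of gene and cell type past 2-fold, with exact Poisson 95% intervals as error bars (1 library per group). Bars of *Inhba*, *Tgfbr2*, *Tgfbr3*, *Fst* and pericyte-like *Tgfb3* are taller in hyperoxia, those of *Inhbb* (101 and 16.9) and alveolar fibroblast-like *Tgfb2* (188 and 83.1) are shorter.

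The type I receptor gene *Tgfbr1* was led by interstitial macrophage-like cells, at 234 CPM (195 to 278) in room air against 231 CPM (205 to 259) in hyperoxia. Alveolar macrophage-like cells had 152 and 121 CPM and nonclassical monocyte-like cells 131 and 167 CPM. Neutrophil-like cells were higher past 2-fold, from 30.2 CPM (12 UMIs) to 69.3 CPM (79 UMIs), a ratio of 2.29 (1.24 to 4.62) in a type where 7.69% of all genes were higher and 5.53% lower by as much. Of the 79 UMIs, 36 came from a cluster of 53 hyperoxia cells, with *Il1rn*, *Il1b*, *Ccl3* and *Cxcl2* among its leading genes, at 286 CPM (200.1 to 396). In the neutrophil-like cluster that both libraries shared, the level was 35.8 CPM in room air against 45.2 CPM in hyperoxia. The log2 ratio of 1.20 over all neutrophil-like cells was under the 2-fold limit with no doublets removed (0.43) and at a finer clustering (0.57), and lay just under it as a mean over single cells (0.99). Artery-like cells moved the other way within 2-fold, with 45.1 and 23.6 CPM and a ratio of 0.524 (0.321 to 0.856).

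*Tgfbr2*, the type II receptor gene, was the receptor gene with the most UMIs behind a difference past 2-fold. In alveolar fibroblast-like cells it measured 185 CPM (170 to 201) from 575 UMIs in room air against 458 CPM (446 to 470) from 5886 UMIs in hyperoxia. This was 2.47-fold higher (2.27 to 2.70) in the hyperoxic lung. In room air these cells came after adventitial fibroblast-like (291 CPM), interstitial macrophage-like (239 CPM) and aCap-like cells (234 CPM), and in hyperoxia they were the highest type, apart from the next. After thinning, 36.0% (29.1 to 43.3) of the cells had a UMI in room air against 54.0% (51.0 to 57.0) in hyperoxia.

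No other type apart from club-like cells lay past 2-fold for *Tgfbr2*. Adventitial fibroblast-like cells measured 291 and 277 CPM, with a ratio of 0.954 (0.822 to 1.11), and myofibroblast-like cells 91.1 and 103 CPM. Among ECs the capillary types went in opposite directions within 2-fold, and their levels lay closer together in hyperoxia. In aCap-like cells it measured 234 and 158 CPM (ratio 0.675, 0.599 to 0.764), and in gCap-like cells 93.5 and 137 CPM (ratio 1.47, 1.32 to 1.63).

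*Tgfbr3*, the coreceptor gene, was led by myofibroblast-like cells at 146 CPM (137 to 156) and 160 CPM (152 to 168). In alveolar fibroblast-like cells it was higher in hyperoxia, as *Tgfbr2* was, with 44.7 CPM (37.6 to 52.8) in room air against 109 CPM (103 to 115) in hyperoxia, 2.44-fold (2.04 to 2.92). Adventitial fibroblast-like cells had 66.7 and 125 CPM, and gCap-like cells were lower with 42.2 and 22.4 CPM (ratio 0.531, 0.435 to 0.647), both within 2-fold. Of the gCap-like cells, 80.2% of room air and 69.5% of hyperoxia lay in clusters dominated by their own library, so state and library cannot be told apart there. A deep gCap-like cluster with over 40 cells of each library had the cell cycle gene *Cenpf* among its leading genes. There *Tgfbr3* measured 32.0 CPM (19.2 to 49.9) and 27.8 CPM (19.1 to 39.0), with overlapping intervals. A larger gCap-like cluster of both libraries (83 and 150 cells) was shallow, with a median of 1065 UMIs, and its value is not given here. The 2 receptor genes that were higher in alveolar fibroblast-like cells and the ligand gene *Tgfb2* that was lower there were read from the same cells. In these cells the room air library lay mainly in 1 cluster (170 cells) and the hyperoxia library in another 2 (570 and 475 cells), and *Tgfbr2* stood at 186 CPM in the first and at 518 and 396 CPM in the others. The cluster both shared, of 37 and 145 cells with a median of 1164 UMIs, gave 136 CPM (13 UMIs) and 345 CPM (76 UMIs) for *Tgfbr2*. The dissociation response list was higher in hyperoxia here, with 11 of 12 genes higher and 6430 against 11184 CPM in sum, and its part in these results was not tested.

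**Figure D4:**
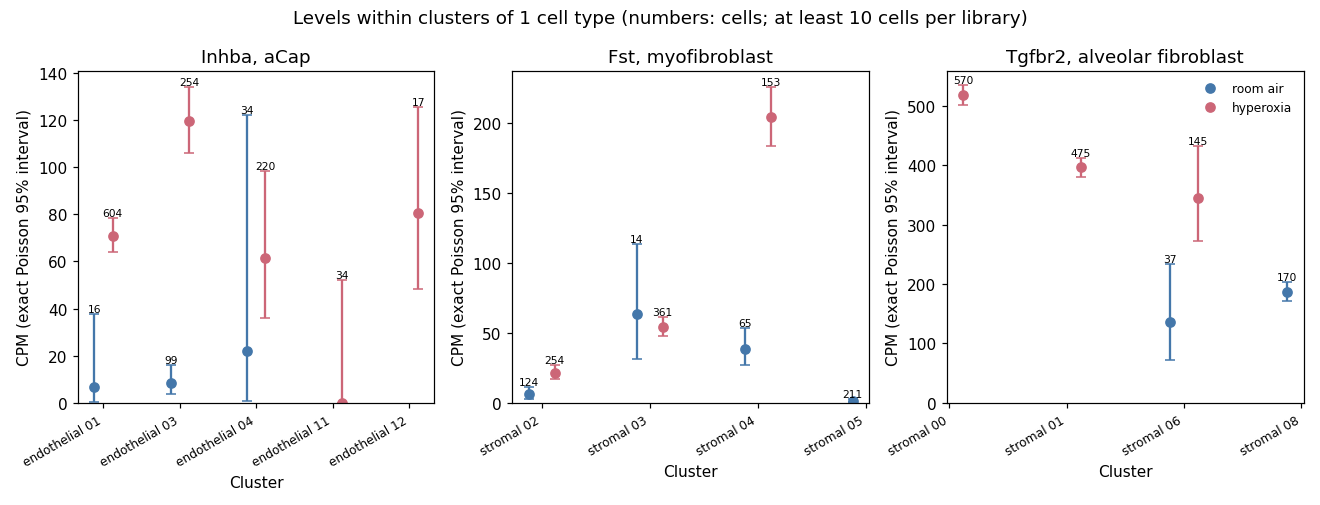
CPM with exact Poisson 95% intervals in each cluster of a cell type for *Inhba* in aCap-like, *Fst* in myofibroblast-like and *Tgfbr2* in alveolar fibroblast-like cells, blue for room air and red for hyperoxia, with the number of cells above each point and clusters under 10 cells of a library left out. *Inhba* in endothelial 03 stands at 8.40 and 120, *Fst* in stromal 04 at 38.6 and 204, and most alveolar fibroblast-like clusters hold cells of 1 library only.

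Follistatin, the antagonist, was read almost only in stromal-like cells, which held 96.0% of the 175 *Fst* UMIs of room air and 96.8% of the 1231 of hyperoxia. Pericyte-like cells, the mural cells of capillaries, measured 53.0 CPM (40.1 to 68.7) in room air against 128 CPM (109 to 148) in hyperoxia, 2.41-fold (1.78 to 3.31). The 2 libraries lay in separate pericyte-like clusters, of 100 room air cells and of 129 hyperoxia cells. Myofibroblast-like cells, the contractile cells of the growing septal tips, measured 10.0 CPM (7.64 to 12.9) and 70.3 CPM (65.2 to 75.8), 7.01-fold (5.37 to 9.31), where 1.48% of all genes were higher and 1.54% lower by at least 2-fold. After thinning, 1.66% and 9.46% of these cells had an *Fst* UMI. Of B-like cells it was 0 of 377, which allows a share of up to 0.796%, and 0.0827%.

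The *Fst* difference in myofibroblast-like cells was uneven over their clusters. In the cluster led by *Aspn*, *Grem1* and *Col12a1* the level was 38.6 CPM (26.7 to 53.9) in 65 room air cells and 204 CPM (184 to 226) in 153 hyperoxia cells. In the one led by *Agt*, *Tnc* and *Egfem1* it was 5.99 CPM (2.87 to 11.0) and 21.4 CPM (16.7 to 26.9). A cluster of 211 room air cells held 3 *Fst* UMIs, and a cluster of 361 hyperoxia cells measured 54.4 CPM. With only the clusters that held at least 30 cells of each library, a choice made after the values were seen, the log2 ratio was 2.31 in place of 2.81.

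Smooth muscle-like cells measured 11.1 CPM (7 UMIs) and 34.6 CPM (87 UMIs) of *Fst*, a ratio of 3.12 (1.45 to 8.0), where 4.11% of all genes were higher and 3.29% lower by at least 2-fold. All of these UMIs came from the cluster led by *Gpc6*, and the cluster led by *Acta2* and *Myh11* had none in its 30 and 150 cells. The direction turned with the clustering, to a log2 ratio of -2.42 when more doublets were removed and -2.56 when each library was clustered alone, against 1.64 here, and it was within 2-fold with stricter limits on cells (0.045) and at a finer clustering (0.65). Adventitial fibroblast-like cells, which with pericyte-like cells held the highest level in room air, had 56.6 CPM (41.3 to 75.8) and 82.0 CPM (71.7 to 93.5), within 2-fold. In hyperoxia the UMIs of *Fst* and *Inhba* lay mostly in different cell types. There aCap-like cells had 710 *Inhba* UMIs and 3 of *Fst*, and the 692 *Fst* UMIs of myofibroblast-like cells stood beside 64 of *Inhba*. Smooth muscle-like cells of hyperoxia held both, with 107 UMIs of *Inhba* and 87 of *Fst*. In room air 61.7% of the *Inhba* UMIs lay in the stromal-like lineage, which also held most *Fst* UMIs. Whether single cells held both was not tested.

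Across the 21 types and both libraries (42 points that share types and libraries), the genes whose log2(CPM + 1) ran most like that of a member, among 8359 others, were *Inpp5d*, *Abcg1* and *Hn1* for *Tgfb1* (r from 0.887 to 0.914). *Tgfb2* ran most like *Prkcdbp*, *Ctgf* and *Rcn2* (0.898 to 0.915), *Tgfb3* like *Adamts2*, *Col6a1* and *Col1a1* (0.888 to 0.893), and *Fst* like *Naalad2*, *Ank2* and *Postn* (0.898 to 0.899). The receptor genes ran most like *Slamf9*, *Abhd12* and *C1qb* (*Tgfbr1*, 0.807 to 0.845), *Copa*, *Exoc4* and *Clmp* (*Tgfbr2*, 0.631 to 0.647) and *Hic1*, *Cacna2d1* and *Mpdz* (*Tgfbr3*, 0.826 to 0.85). *Inhbb* ran most like *Megf6*, *Fzd6* and *Unc13b* (0.793 to 0.834) and *Inhba* like *Dph3*, *Ncam1* and *Pdlim7* (0.653 to 0.655). Between members the highest values were *Tgfb3* with *Fst* (0.716) and *Tgfb2* with *Tgfbr3* (0.682), the lowest was *Tgfb1* with *Tgfb3* (-0.740), and *Inhba* with *Inhbb* gave 0.067. These correlations describe the profiles only.

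The other genes of the pathway were read from 6 lists of 63 genes, chosen with earlier results of these data known, of which 54 were tested in at least 1 type. Of 770 pairs of gene and cell type, 113 were higher (14.7%) and 39 lower (5.06%) past 2-fold, where 4.9% and 4.94% of the pairs of all genes were. These counts include club-like cells (9 higher and 3 lower) and basophil- or mast-like cells (7 higher and 9 lower). Target genes of the pathway held most of the higher pairs, with 65 of 204 pairs higher and 16 lower and a median log2 ratio of 0.57. Of these target pairs, 37 of 130 in stromal, endothelial and epithelial types were higher and 12 lower, and 28 of 74 in the 9 myeloid and lymphocyte types were higher and 4 lower, a split made after the values were seen. The first set includes club-like cells (4 higher and 1 lower) and the second basophil- or mast-like cells (4 higher and 3 lower). B-like cells, which should lack matrix genes, showed *Timp3* at 11.9 and 55.2 CPM, *Ctgf* at 4.58 and 19.1 CPM, *Fn1* at 22.0 and 60.2 CPM, *Col4a1* at 29.8 and 64.1 CPM and *Eln* at 289 and 305 CPM, so that for all of these but *Eln* the background was at least 2-fold higher in hyperoxia. Its part in the counts was not tested. The SMADs and their regulators, at 8 higher and 6 lower of 246 pairs, had a median of 0.07. Activin and accessory receptors had 13 higher and 6 lower of 98 pairs, genes of ligand latency and activation 14 and 8 of 148, secreted antagonists 12 and 3 of 69, and other ligands and inhibin subunits 1 and 0 of 5. Of all these pairs, 55 were past 2-fold with a mean of at least 50 CPM. The 12 of them in club-like and basophil- or mast-like cells are not described for the reason given above, and the other 43, in 23 genes, follow.

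**Figure D5:**
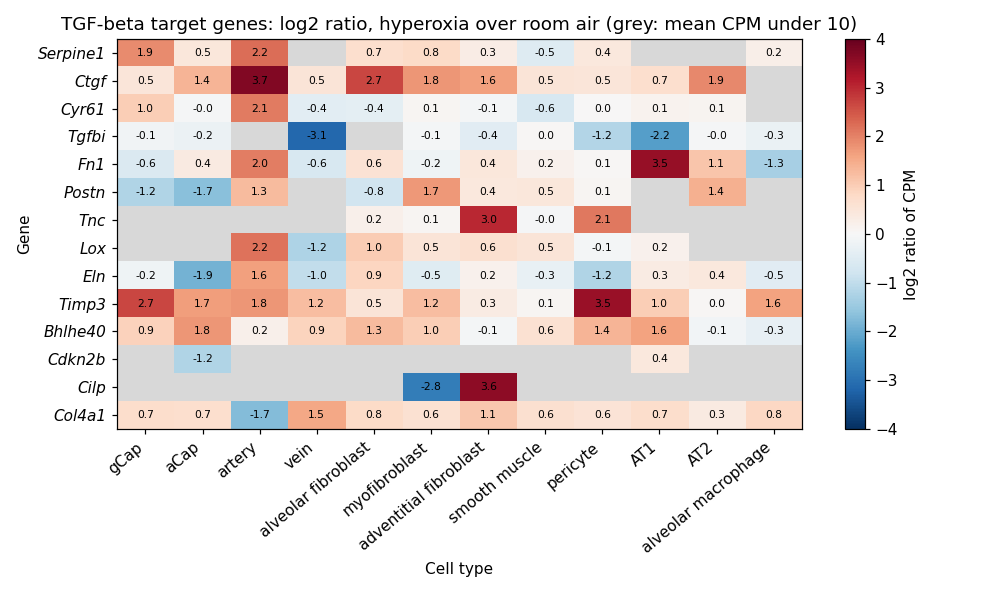
Log2 ratio of CPM (hyperoxia over room air) of 14 target genes (rows) in 12 cell types (columns), red for higher and blue for lower in hyperoxia and grey where the mean was under 10 CPM. *Timp3* and *Ctgf* have no value below 0 in any column where they were read, and *Eln* is red in artery-like and blue in aCap-like cells.

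In alveolar fibroblast-like cells, where the receptor genes were higher, 5 pathway genes of 42 tested were higher and none lower. Of all genes tested there, 2.45% were higher and 1.86% lower by at least 2-fold. *Ctgf*, which encodes the matricellular protein CCN2 and is a classical target of TGF-beta and of YAP, stood at 64.0 and 411 CPM (ratio 6.41, 5.57 to 7.43). *Lox*, the collagen cross-linking enzyme, stood at 192 and 392 CPM, and the activin receptor gene *Acvr2a* at 47.3 and 98.4 CPM. *Ctgf* was also higher in adventitial fibroblast-like (109 and 340.1 CPM), myofibroblast-like (519 and 1754 CPM) and aCap-like cells (34.2 and 87.3 CPM).

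Myofibroblast-like cells had 5 pathway genes higher and 1 lower of 48, beside 1.48% higher and 1.54% lower of all genes. *Postn*, the matrix protein periostin, stood at 424 and 1416 CPM, *Dcn*, the proteoglycan decorin that binds TGF-beta, at 92.1 and 325 CPM, and *Thbs1*, the thrombospondin that can activate latent TGF-beta, at 1070 and 2161 CPM. *Thbs1* was higher as well in pericyte-like (63.2 and 254 CPM) and nonclassical monocyte-like cells (149 and 569 CPM, where 5.36% of all genes were higher and 4.52% lower). *Timp3*, an inhibitor of metalloproteinases, was higher in 6 types with a mean of at least 50 CPM, among them pericyte-like (165 and 1814 CPM, ratio 11.0), gCap-like (227 and 1449 CPM, where 1.8% of all genes were higher and 3.3% lower) and aCap-like cells (1221 and 3889 CPM). The other 3 were artery-like (408 and 1397 CPM), vein-like (501 and 1187 CPM) and myofibroblast-like cells (495 and 1160 CPM).

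Pericyte-like cells also had more *Tnc* (27.0 and 117 CPM), a matrix protein, and less *Bambi* (174 and 52.1 CPM), which encodes a decoy receptor, and *Eln*, the elastin gene (1176 and 508 CPM). *Ltbp1*, which encodes a latent TGF-beta binding protein, stood at 149 and 303 CPM in smooth muscle-like cells. In aCap-like cells, where *Inhba* was higher, *Eln* stood at 911 and 247 CPM, the latter below the level in B-like cells, and *Cdkn2b*, a cell cycle inhibitor gene, at 83.1 and 35.8 CPM. Pathway genes there were higher in 3 and lower in 6 of 40, beside 1.89% higher and 3.16% lower of all genes.

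Artery-like cells, where *Inhbb* was lower, had 12 of 41 pathway genes higher and 2 lower. Of all genes in these cells, 5.85% were higher and 5.41% lower by at least 2-fold. *Eln* stood at 3201 and 9914 CPM (ratio 3.1, 2.97 to 3.23), the fibronectin gene *Fn1* at 247 and 1012 CPM, *Bgn* (biglycan) at 222 and 785 CPM and *Fstl1* at 769 and 1983 CPM. *Cyr61* (107 and 453 CPM), *Lox* (69.4 and 312 CPM), *Ltbp4* (840.5 and 1685 CPM) and *Lrrc32* (48.7 and 105 CPM), which encodes the anchor of latent TGF-beta on the cell surface, were higher too, and *Col4a1*, a basement membrane collagen gene, was lower (1107 and 336 CPM). Stromal lineage markers summed to 163 and 255 CPM in these cells.

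The remaining pairs were spread over other types. *Col4a1* was higher in vein-like (460.4 and 1345 CPM), adventitial fibroblast-like (483 and 1015 CPM) and neutrophil-like cells (22.7 and 94.8 CPM), and *Ltbp3* was lower in vein-like cells (82.2 and 40.2 CPM), where 8.19% of all genes were higher and 7.16% lower. The neutrophil-like values of *Col4a1* stand beside 29.8 and 64.1 CPM in B-like cells. *Fn1* was higher in AT1-like (11.3 and 125 CPM) and interstitial macrophage-like cells (14.8 and 120.3 CPM, where 4.13% of all genes were higher and 5.49% lower) and lower in alveolar macrophage-like cells (381 and 150.0 CPM). *Pmepa1*, which encodes an inhibitor of SMAD signaling, was higher in AT1-like cells (41.0 and 102 CPM) and lower in alveolar macrophage-like cells (94.9 and 45.2 CPM). *Smurf2*, a ubiquitin ligase gene for SMADs and receptors, stood at 49.6 and 105 CPM in nonclassical monocyte-like cells, and *Bhlhe40*, a transcription factor gene, at 25.2 and 125 CPM in neutrophil-like cells.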

How the data were processed

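Lungs of mice at 2 weeks were profiled in 1 library per group. The authors deposited raw UMI counts per gene and barcode from Cell Ranger (mm10), as whole numbers without normalization. Its version is 2.1.1 in the submitters' processing notes and 3.1.0 in the matrix header, the study's methods name a later one, and the kit version differs between labels and methods. Python 3.11.15 was used with numpy 2.4.6, scipy 1.17.1, pandas 2.3.3, scikit-learn 1.9.0, igraph 0.11.9, leidenalg 0.10.2 and matplotlib 3.10.9. Barcodes under 500 genes or over 20% mitochondrial UMIs were dropped, and the cells closest to simulated doublets were removed at 0.8% per 1000 barcodes (129 cells of room air, 1238 of hyperoxia). Both libraries were clustered together (2000 variable genes, 30 components, 20 neighbours, Leiden resolution 1), and each of 5 lineages again, without the 9 members and the pathway genes, except that target genes and *Dcn* took part in the clustering. The 68 final clusters were named by marker score, and 5 stayed unnamed. That rule was tightened once after the clusters had been seen, so that ties and clusters of another lineage stayed unnamed. The marker genes Igkc and Trbc2 were not matched. Members and lists were chosen with earlier results of these data known.

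UMIs were summed per type and library as CPM. Ratios have exact conditional intervals, CPM exact Poisson and shares exact Clopper-Pearson intervals (95%), for counting error only. A pair of gene and type counted as past 2-fold at a ratio of at least 2 or at most 0.5 and a mean of at least 10 CPM. The ratio was tested on simulated data. Shares were repeated on cells with at least 2000 UMIs, each thinned to 2000, and cells with fewer were left out. For a count of 0, up to 3 counts were allowed. Genes named were the members, pathway genes past 2-fold with a mean of at least 50 CPM (apart from the 2 shallow types), and for each member the 3 genes with the highest Pearson r. Lymphatic-like, dendritic-like and ILC2-like cells had fewer than 30 cells in room air and were left out.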

Additional observations from a re-analysis of the deposited data

Results flagged for a closer look

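Among types other than club-like and basophil- or mast-like cells, *Tgfb3*, *Tgfbr1* and *Tgfbr3* were higher in 1 type and lower in another by at least 1.5-fold each, with intervals of both ratios that excluded 1. *Tgfb1*, *Tgfb2* and *Tgfbr2* also had intervals on either side of 1 in different types, but not by that much in both directions. These differences between cell types were not tested. The log2 ratio of *Tgfb3* was 1.39 in pericyte-like cells (0.73 to 2.19 over the alternatives) and -2.19 in AT1-like cells (-3.38 to -1.44), the latter from 16 UMIs in all. For *Tgfbr1* it was 1.20 in neutrophil-like cells (0.34 to 1.54) and -0.93 in artery-like cells. For *Tgfbr3* it was 1.28 in alveolar fibroblast-like cells and -0.91 in gCap-like cells, 2 types in which most cells lay in clusters dominated by their own library. Most pericyte-like cells also lay in such clusters.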

How the results depend on the processing

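Of 86 alternative log2 ratios in the leading cell types, 80 moved by less than the counting error and 6 moved further, and of 111 in other types 102 did not, 6 moved and 3 turned. The log2 ratio stayed between 3.28 and 3.67 for *Inhba* in aCap-like cells and between -3.11 and -2.51 for *Inhbb* in artery-like cells. It stayed between 1.23 and 1.34 for *Tgfbr2* in alveolar fibroblast-like cells and between 1.16 and 1.49 for *Fst* in pericyte-like cells. *Tgfb2* in smooth muscle-like cells (0.24) gave 0.021 with no doublets removed, -0.37 with 2 times the expected number removed, 0.51 at resolution 2, -0.29 with each library clustered alone and 0.0091 with only clusters of at least 30 cells of each library, the last chosen after seeing the data. *Tgfbr1* in interstitial macrophage-like cells (-0.02) gave -0.39 with each library clustered alone. Its highest value was 0.25, and it was below 0 in 6 of 11 settings, the reported one included. *Fst* in smooth muscle-like cells (1.64) turned to -2.42 with 2 times the doublets removed and -2.56 with each library clustered alone, and *Tgfbr1* in club-like cells to -0.24 as a mean over single cells. *Tgfb3* in pericyte-like cells (1.39) gave 0.73 with no doublets removed and 2.19 with each library clustered alone. The cause of these changes was not tested. Without thinning, the difference in the share of cells with a UMI (hyperoxia minus room air, percentage points) was 15.7 for *Inhba* (7.76 thinned), -29.4 for *Inhbb* (-16.6), 8.09 for *Tgfbr2* (18.1) and -5.83 for *Tgfbr3* (3.86). With no minimum CPM, which tests more pairs, 43 pairs were higher and 23 lower, and at a minimum of 50 CPM 4 and 3 were. The share over all genes was not computed at these limits, so these counts are not read as a result about the genes. Alternatives that left a type fewer than 30 cells in a library gave no value. No paired analysis was possible because each group is 1 library. Depth limits *Inhba*, *Inhbb* and *Fst* most, with 81 *Inhba* UMIs in all of room air.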
